A study of Mus musculus with 12 samples.

Results

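Blood leaves RNA of its own in a block of brain tissue, and 10 mouse genes of red cells and neutrophils were examined in the frontal cortex. They are the neutrophil genes Ngp, Ltf, Camp, S100a8 and S100a9 and the red cell genes Hba-a1, Hba-a2, Hbb-b1, Hbb-b2 and Alas2. They were selected on the ratios and p-values of the gene table, seen in earlier work on the same data, so those values describe them and test nothing. Of the 10, 9 were among the 15191 genes of the authors' deposited gene table. Camp, which encodes the cathelicidin antimicrobial peptide, has no value among those analysed here.

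The samples were cortices of male C57BL/6 mice, 6 of genotype Adar2-/-/Gria2R/R and 6 of genotype Adar2+/+ Gria2R/R from litter mates, with no identifier of the animal behind each. Both groups carried Gria2R/R, an allele of the AMPA receptor subunit GluA2 that fixes arginine at its edited codon, and they differed by loss of Adar2, the RNA editing enzyme encoded by Adarb1. Age, and whether vessels were cleared of blood, were not stated in the labels. The gene table calls its conditions B and A without a genotype, so its ratios are given as B over A and its counts as means over both, while the exon table names control and ADAR.

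Red cells lose their nucleus before they enter the blood, and the globin mRNA still held by young red cells is among the most abundant RNAs of whole blood. Hba-a1 and Hba-a2 encode the alpha chain of haemoglobin, Hbb-b1 and Hbb-b2 encode beta chains, and Alas2 encodes the red cell form of the first enzyme of haem synthesis. Globin mRNA has also been described in some neurons and glia of rodents. Neutrophils make their granule proteins in the bone marrow: Ngp encodes neutrophilic granule protein, Ltf encodes the iron-binding protein lactoferrin, and both belong to the secondary granules. S100a8 and S100a9 encode the partners of calprotectin, the most plentiful protein of the neutrophil cytosol. In bulk tissue, fewer cells of a type and less RNA per cell cannot be told apart. Which cells the counts of these genes come from was not tested.

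The globin genes come in near-identical copies, so the stretch of coding sequence that separates each pair is shown first, since reads can be given to one copy only where it differs. The sequences are from GENCODE vM21 on GRCm38, another build than the mm9 named in the submitters' processing notes. Hba-a1 (chr11:32283511-32284465, plus strand) and Hba-a2 (chr11:32296489-32297298, plus strand) each had a coding sequence of 429 bases. It differed at 1 base, shown in capitals within bases 336 to 425 counted from the start codon.
Hba-a1: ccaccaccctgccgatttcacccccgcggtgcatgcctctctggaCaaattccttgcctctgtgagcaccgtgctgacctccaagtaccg
Hba-a2: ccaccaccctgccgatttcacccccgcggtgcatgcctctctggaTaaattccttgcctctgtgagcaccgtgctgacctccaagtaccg

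The beta globin copies that GENCODE places on the minus strand of chromosome 7 are named Hbb-bs (chr7:103826534-103828096) and Hbb-bt (chr7:103812524-103813996). Their coding sequences of 444 bases also differed at 1 base, shown in capitals within bases 355 to 444.
Hbb-bs: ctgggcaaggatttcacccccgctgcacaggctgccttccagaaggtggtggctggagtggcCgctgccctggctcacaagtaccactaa
Hbb-bt: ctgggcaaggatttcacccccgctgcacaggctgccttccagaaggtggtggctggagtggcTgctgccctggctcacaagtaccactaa

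Identity over the coding sequence was 99.8% in both pairs. Of all windows of 50 bases in the main Hba-a1 transcript, 67.5% also occurred in Hba-a2, and of those of Hba-a2 86.9% occurred in Hba-a1. The shares were 65.8% for Hbb-bs in Hbb-bt and 58.3% for Hbb-bt in Hbb-bs. Neither read length nor the counting of reads that match both copies was stated in the labels, so the split between the copies of a pair is uncertain. The sources do not pair the symbols Hbb-b1 and Hbb-b2 of the gene table with Hbb-bs and Hbb-bt, to which the IDs of the exon table lead. The names are therefore kept apart below.

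The neutrophil genes were the members with ratios far from 1. Ngp had a ratio of B over A of 4.17 in the authors' deposited table, at a mean normalized read count of 17.2 over both conditions. For Ltf the ratio in the authors' deposited table was 3.78 at a mean count of 25.2. S100a9 had a ratio of 2.61 at 43.1 and S100a8 one of 2.42 at 29.9 in the authors' deposited table. All 4 were higher in B, and all were low in count, together 115.4 beside 7929 for the 4 globin genes.

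A ratio of 2 or more was listed for 0.171% of all genes, 26 in number. Since the members were chosen with this contrast known, nothing is read from their count. Among the 1852 genes with a mean count under 50, where the neutrophil members lie, 13 (0.702%) had such a ratio and 5 had a ratio of 0.5 or less. The neutrophil members are themselves among the 26 and among the 13. Values per library were not analysed here, so overlap between the conditions could not be seen.

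These ratios were not past the threshold of the authors' test. In the authors' deposited table p was 0.121 for Ngp, 0.202 for Ltf, 0.242 for S100a9 and 0.342 for S100a8, with an adjusted p of 1 for each. Of the 9 members, 0 had an adjusted p under 0.05, where 0.0197% of all genes did, and 0 had an unadjusted p under 0.05, where 1.86% did. The columns of this table have the form that DESeq writes. The lowest mean count listed was 15.0, and at their ratios Ngp and Ltf passed that floor through their level in B.

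The error behind each ratio was estimated as the size of the log2 ratio divided by the normal quantile of the deposited p, which is called the implied standard error (SE). It is approximate, because the deposited p comes from a count model and not from a normal distribution. Ngp had a log2 ratio of 2.06 with an implied SE of 1.33, which spans -0.55 to 4.66 at 95% confidence. Ltf had a log2 ratio of 1.92 with an implied SE of 1.5, spanning -1.03 to 4.87. S100a9 had one of 1.39 with an implied SE of 1.18 (-0.93 to 3.71), and S100a8 one of 1.27 with an implied SE of 1.34 (-1.35 to 3.90). Every span includes 0, and every span reaches beyond a log2 ratio of 3.

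The implied SE is made from the ratio and the p on which the members were selected, so its rank among genes of like count is a description that the choice of members fixes. Among genes whose mean count lay within 1.5 times that of Ltf, the median implied SE was 0.35, and that of Ltf was 4.35 times as large, at percentile 94.6 of 1194 genes. S100a9 was at 4.43 times the median of its like (percentile 94.6 of 1214 genes), S100a8 at 4.25 times (percentile 94.1 of 1196 genes) and Ngp at 3.44 times (percentile 92.9 of 802 genes). Nothing is read from these ranks. Which libraries carried the higher counts could not be read from these tables.

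**Figure D1:**
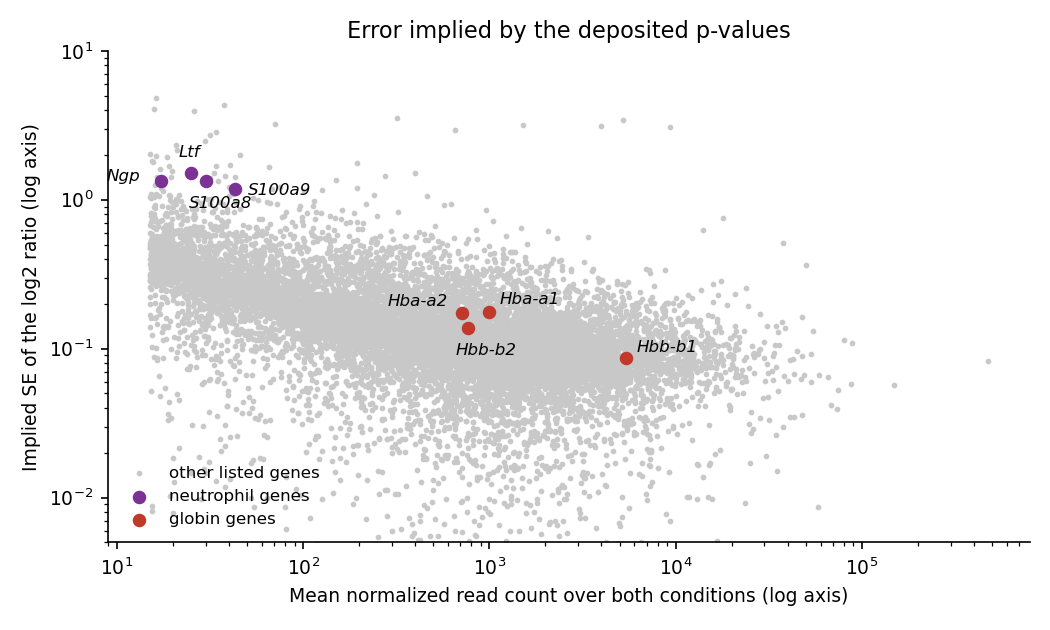
Implied SE of the log2 ratio (log axis) against mean normalized read count over both conditions (log axis) for each listed gene, with neutrophil genes in purple and globin genes in red. Not drawn are 2253 genes with p of 0.9 or more, Alas2 among them, and 79 with an implied SE under 0.005. The neutrophil genes (1.18 to 1.5) sit near the upper edge of the genes of like count, and Hbb-b1 (0.09) sits within the cloud.

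The red cell genes stood close to level. Hbb-b1, the most highly counted member, had a ratio of B over A of 0.975 at a mean count of 5446 in the authors' deposited table. For Hba-a1 the authors' deposited table gave 0.938 at a mean count of 1000.2. Hbb-b2 had a ratio of 0.955 at 768.0 and Hba-a2 one of 0.917 at 714.1 in the authors' deposited table. All 4 globin ratios were below 1, and none reached a difference of 1.2-fold, which 8.4% of all genes reached in either direction. The 4 neutrophil genes were the members that did, by the choice of members.

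The implied globin errors were far smaller than those of the neutrophil genes. Hbb-b1 had a log2 ratio of -0.04 with an implied SE of 0.09, so that the 95% span runs from 0.867 to 1.10 in the ratio. For Hbb-b2 the log2 ratio was -0.07 (implied SE 0.14, span 0.792 to 1.15). Hba-a1 was at -0.09 (implied SE 0.18, span 0.739 to 1.191) and Hba-a2 at -0.13 (implied SE 0.17, span 0.723 to 1.16). A difference of 2-fold lies outside each of these spans. Each span comes from a small log2 ratio divided by a small quantile, both from values on which the members were chosen. The spans are therefore descriptions, and no size of difference is excluded by them. The deposited p was 0.673, 0.628, 0.600 and 0.473 for Hbb-b1, Hbb-b2, Hba-a1 and Hba-a2 in the authors' deposited table. Against genes of like count, the implied SE of Hbb-b1 was 0.969 times the median (percentile 46.9), that of Hbb-b2 1.30 times (percentile 68.9), that of Hba-a2 1.63 times (percentile 78.0) and that of Hba-a1 1.75 times (percentile 81.8).

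Alas2 had a ratio of B over A of 1.05 at a mean count of 367.1 in the authors' deposited table, where p was 0.981. With a log2 ratio of 0.06 and a p this close to 1, the implied SE comes out at 2.73. It is a quotient of 2 values near 0 and is not used.

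**Figure D2:**
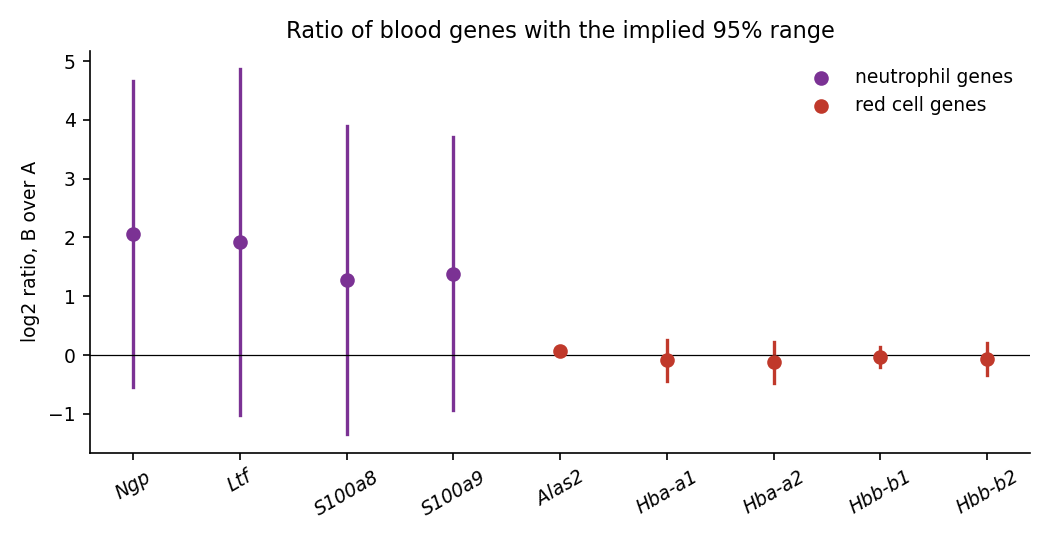
Authors' log2 ratio of B over A (points) for 4 neutrophil genes in purple and 5 red cell genes in red, with the range that the deposited p implies at 95% confidence as a vertical line, left out for Alas2. The lines of Ngp, Ltf, S100a8 and S100a9 are long and include 0, with points from 1.27 to 2.06, and those of the globin genes are short and also include 0.

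**Figure D3:**
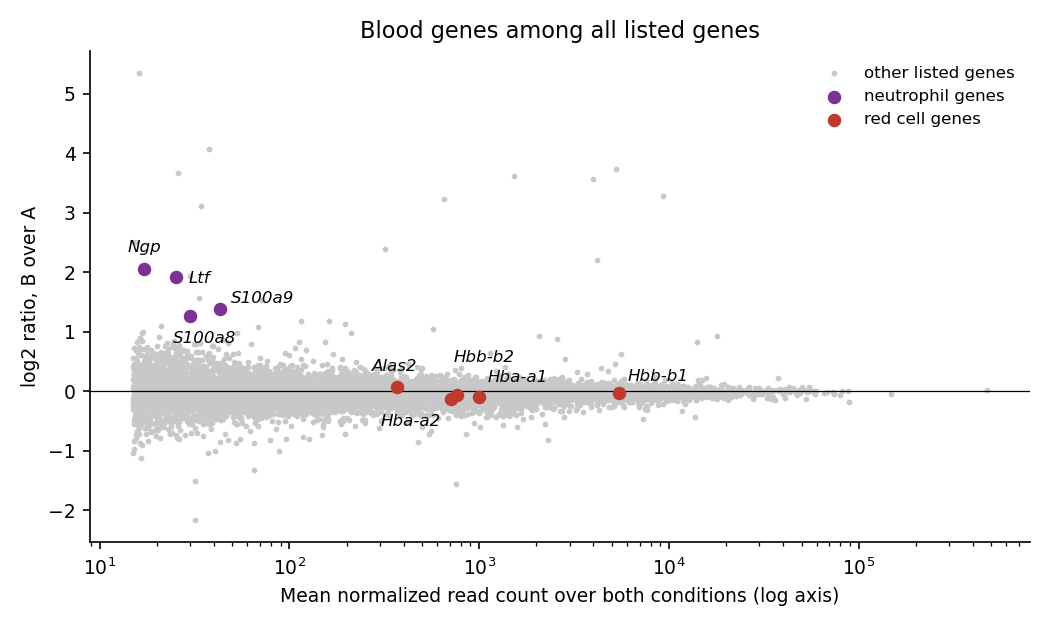
Authors' log2 ratio of B over A against mean normalized read count over both conditions (log axis) for all 15191 listed genes (grey), with neutrophil genes in purple and red cell genes in red. Ngp, Ltf, S100a8 and S100a9 lie between 1.27 and 2.06, above the bulk of genes of like count, and the 5 red cell genes lie between -0.13 and 0.06.

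Partner genes had like ratios, and their shares of a pair were set by their counts over both conditions. Hba-a1 made up 58.3% of the alpha globin counts, and Hbb-b1 made up 87.6% of the summed counts of Hbb-b1 and Hbb-b2. S100a9 took 59.0% of the calprotectin counts and Ltf 59.4% of the summed counts of Ltf and Ngp. These shares are not corrected for length and have no error.

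Levels of different genes were compared per kilobase of the main GENCODE transcript, over both conditions. Hba-a1 had 1431 counts per kilobase and Hba-a2 had 1289. Alas2 followed at 180.2. Of the neutrophil genes, S100a9 had 84.2 counts per kilobase, S100a8 had 61.6, Ngp had 14.0 and Ltf, with the longest transcript at 2743 bases, had 9.17. Whether neighbours in this order differ beyond the spread between libraries could not be tested. Hbb-b1 and Hbb-b2 were left out, because no transcript was paired with their symbols.

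The promoters of the 4 neutrophil genes with values and of Hba-a1 and Alas2 are shown as sequences of neutrophil and red cell members. Whether they bear on the ratios was not tested. Each promoter is the 120 bases before the RefSeq start on GRCm38.p6. Capitals mark matches, on either strand, to the box with the letters CCAAT, the box with the letters CACCC, the start-site element written TATAAA, the core GATAA that GATA factors bind, or the loose C/EBP-like motif TTNNGNAA, in which N is any base. The positions are chr9:110419688-110419807 for Ngp, chr9:111019172-111019291 for Ltf, chr3:90668951-90669070 for S100a8, chr11:32283552-32283671 for Hba-a1 and chrX:150547297-150547416 for Alas2, all on the plus strand, and chr3:90695722-90695841 for S100a9 on the minus strand.
Ngp: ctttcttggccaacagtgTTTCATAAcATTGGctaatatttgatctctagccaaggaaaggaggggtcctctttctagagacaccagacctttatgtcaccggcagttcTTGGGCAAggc
Ltf: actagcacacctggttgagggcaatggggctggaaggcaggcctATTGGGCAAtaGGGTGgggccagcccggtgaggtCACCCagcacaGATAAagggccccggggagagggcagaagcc
S100a8: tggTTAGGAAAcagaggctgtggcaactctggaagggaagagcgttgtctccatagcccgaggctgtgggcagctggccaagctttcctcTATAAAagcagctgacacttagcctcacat
S100a9: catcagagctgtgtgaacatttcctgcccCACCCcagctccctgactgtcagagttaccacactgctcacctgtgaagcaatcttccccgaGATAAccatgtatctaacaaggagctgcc
Hba-a1: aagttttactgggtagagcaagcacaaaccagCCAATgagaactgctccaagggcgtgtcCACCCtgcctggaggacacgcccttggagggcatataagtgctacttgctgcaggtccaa
Alas2: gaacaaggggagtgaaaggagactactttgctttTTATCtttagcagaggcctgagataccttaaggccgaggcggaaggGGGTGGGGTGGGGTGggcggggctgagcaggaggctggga

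Matches were looked for in these 6 windows and in those of Camp, Hba-a2, Hbb-bs and Hbb-bt. The C/EBP-like motif was matched 2 times before Ngp and 1 time each before Ltf and S100a8, where it overlapped the CCAAT match of Ltf, and it was not matched before S100a9, Camp or any red cell gene. Of 32851 RefSeq promoter windows of this length, 18.0% held it. CACCC, the core of the box that red cell factors of the Klf family bind, was matched before each red cell gene, 3 times before Alas2, but also before Ltf, Camp and S100a9, and 31.7% of the windows held it. GATAA was matched before Alas2, Ltf and S100a9 (10.5% of the windows). CCAAT was matched before Ngp, Ltf and the 4 globin genes (21.3%), and TATAAA before S100a8 and Hbb-bt (6.34%). These are matches of letters only.

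Most other genes of the neutrophil lay near 0. Of 48 neutrophil genes on a list chosen for this tissue, 17 were listed, and of the 13 that are not members 3 were higher and 10 lower in B. Their median log2 ratio was -0.03, beside -0.01 over all listed genes, and 0 passed an adjusted p of 0.05. Prtn3, which encodes the primary granule protease proteinase 3, had a log2 ratio of 0.81 at a mean count of 24.3 in the authors' deposited table (p = 0.0209, adjusted p = 1). Lyz2, the lysozyme of myeloid cells, had one of -0.27 at 447.9 (p = 0.243), and Itgam, an integrin chain shared with microglia, one of -0.04 at 825.7, in the authors' deposited table. Several genes of this list are also expressed by microglia, whose own 18 markers were all listed, 3 higher and 15 lower in B, with a median of -0.12. The part of either cell type in these ratios was not tested.

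Among 8 regulators of granule genes, 4 were listed, with a median log2 ratio of 0.10 and 0 past the threshold. Cebpa and Cebpb, which encode C/EBP factors, had ratios of 1.09 and 1.12 in the authors' deposited table. Of 9 genes for receptors and signalling of calprotectin, 7 were listed, 1 higher and 6 lower in B, with a median of -0.11. Tlr4, which encodes a receptor of calprotectin, had a log2 ratio of -0.09 at a mean count of 177.9 in the authors' deposited table.

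Of 28 red cell genes beside Alas2, 9 were listed, 5 higher and 4 lower in B, with a median log2 ratio below 0.01. Slc4a1, which encodes the anion exchanger band 3 of the red cell membrane, was the one far from 0: at a mean count of 20.7 the authors' deposited table gave it a log2 ratio of 0.91, with an implied SE of 1.01 (p = 0.370, adjusted p = 1). Fech, which encodes the last enzyme of haem synthesis, had a log2 ratio of 0.01 at a mean count of 1695 in the authors' deposited table. Tmcc2, the most highly counted of the 9, had one of -0.05 at 4465 in the authors' deposited table. Which cells the counts of these 9 genes come from was not tested, so their median is not read as a level of red cells. The 13 listed genes of haem synthesis other than Alas2 lay within -0.08 and 0.05, 6 higher and 7 lower in B, with a median of -0.02. Alas1, the form of the first enzyme that most tissues use, had one of -0.03 at 1945 in the authors' deposited table.

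Genes that handle haem and iron had a median near level, with the iron exporter gene farthest from it. Of 14 listed genes 5 were higher and 9 lower in B, with a median of -0.02 and 0 past the threshold. Slc40a1, which encodes the iron exporter ferroportin, had a log2 ratio of 0.37 at a mean count of 386.6 in the authors' deposited table (p = 0.0188, adjusted p = 1). Fth1, which encodes the ferritin heavy chain, had one of 0.04 at 11396 in the authors' deposited table.

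Markers of other blood cells and of the vessel wall were set beside them. Of 16 platelet genes 6 were listed, 2 higher and 4 lower in B, with a median of -0.02 and a range of -0.21 to 0.17. Of 22 lymphocyte genes 4 were listed, with a median of -0.20 and a range of -0.37 to 0.02, and the median was -0.07 at mean counts of at least 50. Of 17 monocyte genes 8 were listed, with a median of -0.07 and a range of -0.34 to 0.21, and the median was -0.14 at mean counts of at least 50. All 25 endothelium and mural cell genes were listed, 12 higher and 13 lower in B, with a median of -0.02 and a range of -0.27 to 0.20. In these lists 0 genes passed the adjusted threshold. The glucose transporter gene Slc2a1 of the endothelium had a log2 ratio of -0.19 (p = 0.0772), and the pericyte gene Rgs5 one of 0.01, in the authors' deposited table.

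Tissue next to the cortex can carry blood too. The 17 genes of meninges and fibroblasts were all listed, 7 higher and 10 lower in B, with a median of -0.03. Col3a1, which encodes a fibrillar collagen, had a log2 ratio of -0.72 at a mean count of 541.7 in the authors' deposited table (p = 0.0370, adjusted p = 1), opposite in sign to the neutrophil members. Of 15 choroid plexus genes 4 were listed, and Ttr, the plexus gene for transthyretin, had a mean count of only 34.7 and a log2 ratio of -0.15 in the authors' deposited table. The part of these tissues in the blood genes was not tested.

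**Figure D4:**
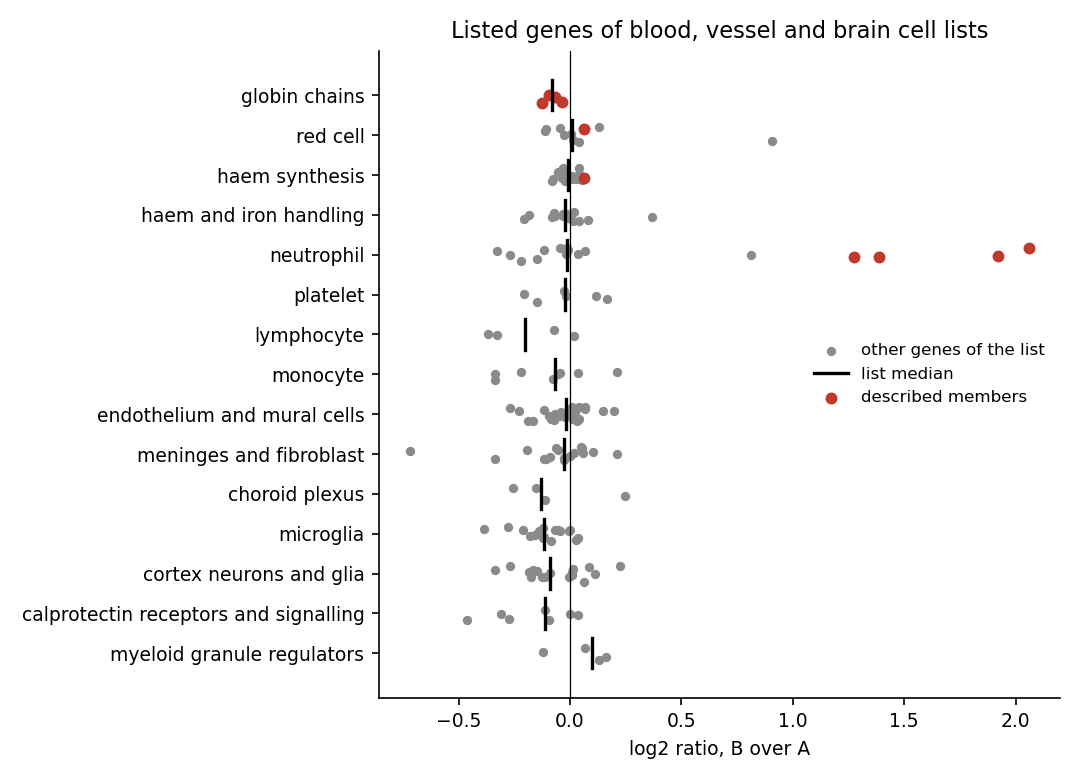
Authors' log2 ratio of B over A for every listed gene of 15 lists, 1 row for each list, with the described members in red, other genes in grey and the list median as a black bar. The neutrophil members (1.27 to 2.06) stand to the right of the 13 other neutrophil genes, whose median is -0.03, and most other genes lie near 0.

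The exon table gives the usage of exon bins within a gene, as the log2 ratio of control over ADAR, so a positive value means higher usage in the control. It listed 29 bins of 6 member gene IDs: 11 of Alas2, 6 of Hbb-bs, 4 of Hba-a1, 3 each of Hba-a2 and Hbb-bt, and 2 of S100a9. Bins of Ngp, Ltf and S100a8 were not analysed here. None of the 29 had an adjusted p under 0.05 in the authors' deposited table, where 0.00738% of the 149137 bins with a p did, and 2 had an unadjusted p under 0.05, where 1.67% of them did.

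Both of those bins were in Hba-a2, and they pointed opposite ways. Usage is relative within a gene, so where few bins are listed a rise in one tends to go with a fall in another. Nothing is read from the opposite signs. E006 had a log2 ratio of 0.24 (p = 0.00190, adjusted p = 1, mean count 213.4) and E008 one of -0.33 (p = 0.00273, adjusted p = 1, mean count 108.1) in the authors' deposited table, while the most covered bin, E007, was at -0.01. In Hba-a1 the bins ranged from -0.15 for E009 to 0.14 for E006 in the authors' deposited table, with a smallest p of 0.116. Reads that match both copies may enter either gene, so bins of the pair are not independent.

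The bins of the remaining members lay closer to 0 or had low counts. In the authors' deposited table the 6 bins of Hbb-bs ranged from -0.13 to 0.09 and the 3 of Hbb-bt from -0.04 to 0.06. The 11 bins of Alas2 ranged from -0.20 to 0.34 at mean counts of 20.2 to 68.2, with a smallest p of 0.0928, in the authors' deposited table. For S100a9 the bins E001 and E002 stood at 0.03 and -0.03 with mean counts of 32.7 and 22.3 in the authors' deposited table.

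**Figure D5:**
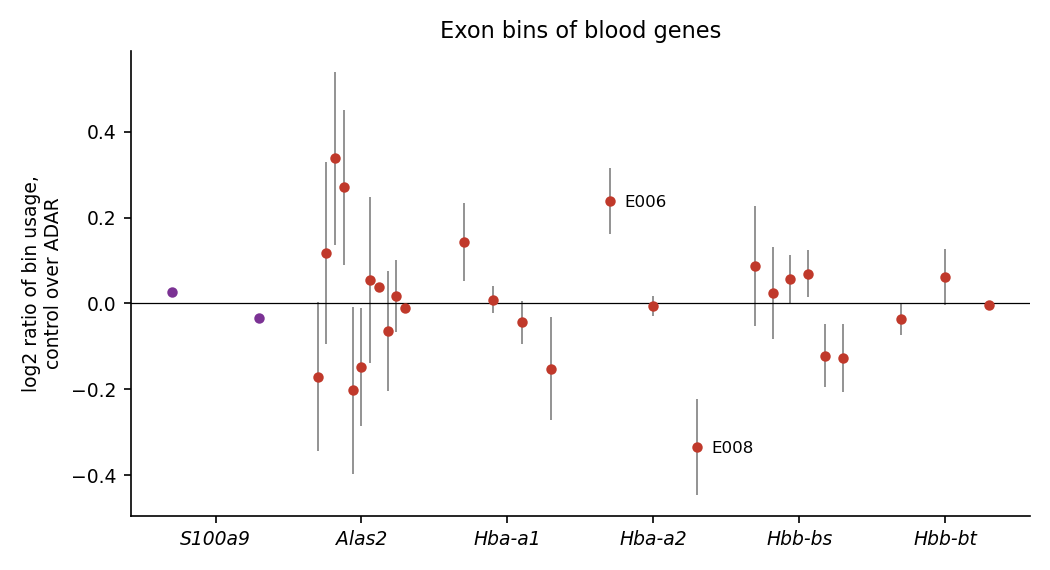
Authors' log2 ratio of bin usage, control over ADAR, for the 29 bins of 6 member gene IDs, in the order of the bin names, S100a9 in purple and red cell genes in red. Grey lines are the implied SE on either side, drawn where p was under 0.9, and the bins with an unadjusted p under 0.05, E006 and E008 of Hba-a2, are named and lie at 0.24 and -0.33.

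Each bin also carries a dispersion, its spread in the authors' model of bin usage. It is not the spread of the whole gene between libraries, so it is not set against the implied SE. The dispersion of 24 of the 29 bins lay within 1.2 times the median of bins with a mean count within 1.5 times their own, and 5 lay above. The 5 were E006 and E009 of Hba-a1 (2.99 and 2.08 times the median), E008 of Alas2 (2.17 times), E003 of Hbb-bt (1.73 times) and E006 of Hbb-bs (1.47 times). The 2 bins of S100a9 were at 0.932 and 1.07 times the median. The lowest of the 29 was at 0.913 times, and many lay just above that. Whether the authors' model held dispersions at or above a fitted level was not stated. Closeness to the median is therefore not read as a measured spread of these bins.

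RNA editing was listed at 143 sites in 95 genes, and 0 of the sites lay in a member gene. Adarb1, the targeted gene, had in the authors' deposited table a ratio of B over A of 4.62 (adjusted p = 3.06e-126). No genotype was assigned to B or A from this value, and the neutrophil ratios run in the same direction. Markers of the labelled tissue were present: Snap25 of neurons and Slc1a2 of astrocytes had mean counts of 81736 and 88913 in the authors' deposited table.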

How the data were processed

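Total RNA of 12 frontal cortices was sequenced after ribosomal RNA removal with a stranded kit, per the labels' protocols. Per the submitters' processing notes, which give neither roles nor order, the tools were DESeq, HTSeq, SAMtools 01.19.0, Bowtie2 2.02.0 and TopHat2 2.0.6, on mm9. The authors deposited comparisons, not values per library, per the file headers. For genes the authors deposited a signal, the mean normalized count over both conditions, the ratio of B over A, its log2 and the p-values before and after adjustment. For exon bins the authors deposited a mean count, the log2 of control over ADAR, p-values and a dispersion score. The deposited editing table, with percent of edited reads, was used only to look for members. Another 2 columns, means per condition, were not used because their headers name no genotype. Depth per library is unknown. The labels count cortices and give no animal identifiers, so the p-values measure the spread between libraries.

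The members and the 15 lists were chosen with earlier results of these data known. Genes eligible to be named were the members, Adarb1 and, from each list, the 2 with the smallest p, the 2 with the largest mean and any past the adjusted threshold. Genes of like pattern were not sought, since this needs values per library. The implied SE was not given at p of 0.99 or more. It, percentiles among genes or bins within 1.5 times the mean count, and a Benjamini-Hochberg adjustment were computed with scipy 1.17.1 and pandas 2.3.3 in Python 3.11.15. The code for the implied SE and the adjustment was run on simulated normal ratios and their p. No counts were simulated, so that run checks the arithmetic only. Gene IDs were named from GENCODE, and RefSeq promoters matched 8 members by symbol. The alternatives were other thresholds, folds, count minimums and windows.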

Additional observations from a re-analysis of the deposited data

How the results depend on the processing

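The number of genes past the threshold was 5 at an adjusted p under 0.1, in place of 3, and the number of exon bins was 6 with a mean count of at least 50 and a new adjustment, in place of 11. Fewer bins were tested in the second case. In the 8 other recomputed counts, among them 0 members and 0 member bins past the threshold and 4 members past a 1.5-fold difference, the value stayed within 1.5 times. A further 31 recomputed values, of list medians and percentiles, moved by less than the median implied SE of the list or by less than 10 points, though at mean counts of at least 50 the median of the lymphocyte list was -0.07, in place of -0.20, and that of the monocyte list -0.14, in place of -0.07. The mean of the bins of a gene was not set against its ratio in the gene table, since usage is another quantity and the conditions are named differently. Leaving out libraries, other normalizations and other count tests need values per library and were not run. No paired analysis was possible because the tables hold no values per library. Depth per library could not be judged, and low counts limit the neutrophil genes.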

Other observations

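Immunoglobulin genes, products of plasma cells and B cells, were looked at after their values were seen. Igk-C, a light chain constant gene, stood at 1.94 in log2 of B over A, at a mean count of 29.9, in the authors' deposited table (implied SE 2.49, p = 0.437). Igj, the joining chain of secreted antibodies, had one of 1.56 at 33.3 (implied SE 1.51, p = 0.300) in the authors' deposited table. For Igh-1b, a heavy chain gene, the authors' deposited table gave 1.12 at 195.9 (implied SE 1.2, p = 0.348). Igh-6 had -0.24 at 255.2 (p = 0.487) in the authors' deposited table. It was the other gene found among symbols that begin with Igh-, Igk- or Igl- or read Igj. Other symbol forms were not searched. The adjusted p of these 4 genes was 1.

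The neutrophil members and 3 of these immunoglobulin genes are among the 26 genes with a ratio of 2 or more. Of the 26, 16 had a p between 0.2 and 0.4 in the authors' deposited table and 3, Adarb1 among them, had one under 0.05. With Adarb1 left out, the median p was 0.269. Of the 7 genes with a ratio of 0.5 or less, 0 had a p between 0.2 and 0.4 and 4 had one under 0.05, with a median p of 0.00623, in the authors' deposited table. Ltf, S100a8, S100a9, Igj and Igh-1b lie in the band of 0.2 to 0.4, and Ngp and Igk-C lie outside it. The members were selected on ratio and p, and the immunoglobulin genes were picked with their values known. The band of 0.2 to 0.4 was not part of the plan. The counts are therefore partly fixed by these choices. They are given as a description, and a difference between the 26 genes and the 7 was not tested.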
